A study of Homo sapiens with 12 samples.

Results

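Integrins are receptors for the extracellular matrix, each built of 1 α and 1 β subunit, and 10 of their subunit genes were followed: ITGA2, ITGA5, ITGA6, ITGA11, ITGAV, ITGB1, ITGB3, ITGB4, ITGB6 and ITGB8. They were chosen by name, with earlier results of these data known, out of 19775 genes with a probe set of their own on the Affymetrix HG-U133 Plus 2.0 array, and each gene was represented by its single-gene probe set with the highest mean over the 12 arrays. Of the 10 members 9 had such a probe set. The 4 probe sets of ITGB6 are annotated to ITGB6 and LINC02478 together, so no value was named for it. The arrays measured RNA of Hs578T and BT-20, 2 established lines of human breast cancer, after 24 h with 200 nM of a DNA oligonucleotide delivered with the liposomal reagent DOTAP, which every group received. The oligonucleotides were: CDH13 M, a double-stranded DNA with methylated CpG cytosines; CDH13 U, the same DNA without methylation; ODN2006, a single-stranded CpG oligodeoxynucleotide; and ODN2006 CTL (CTL here), in which GpC replaces CpG. In each line M had 2 arrays and U had 2 arrays, 1 from set 1 and 1 from set 2, which the labels describe as biological replicates, whereas ODN2006 and CTL had 1 array each. The labels do not say that the replicates were separate cultures, so p-values measure the spread between these arrays, which may be technical. Arrays of untreated cells or of cells with DOTAP alone were not analysed here. Values are log2 expression from GCRMA, and a level under 5 was taken as dim. Paired M or U values are given with set 1 before set 2.

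The α subunit of an integrin largely decides the ligand and the β subunit couples the receptor to the cytoskeleton. ITGB1 pairs with many α subunits, among them the products of ITGA2 and ITGA11 in receptors for collagen, ITGA5 in a receptor for fibronectin and ITGA6 in a receptor for laminin. ITGA6 also pairs with ITGB4 in the hemidesmosomes of epithelial cells. ITGAV pairs with ITGB1, ITGB3, ITGB6 and ITGB8 (and with ITGB5) in receptors that bind the RGD motif of matrix proteins and of the latent form of TGF-β.

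The oligonucleotides are printed because they define the 4 conditions; capitals mark each CpG. The upper strand of CDH13 U holds 4 CpG over 30 bases, and these are the cytosines methylated in M. ODN2006 holds 4 CpG over 24 bases, and CTL holds 0 CpG and 4 GpC.
CDH13 U, upper strand: tCGgatCGccCGgcaCGggcagggtgaggg
CDH13 U, complementary strand: ccctcaccctgccCGtgcCGggCGatcCGa
ODN2006: tCGtCGttttgtCGttttgtCGtt
ODN2006 CTL: tgctgcttttgtgcttttgtgctt

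In the M and U arrays ITGA11 and ITGA5 were higher in Hs578T, ITGB4, ITGA6, ITGA2, ITGB8 and, by a small amount, ITGB1 were lower, and ITGAV did not pass the test. Of 8 members tested 2 were higher and 5 lower (limma with Benjamini-Hochberg adjustment over 10410 genes, threshold 0.05). Between these lines 74.6% of all genes tested were called, 34.4% higher and 40.2% lower in Hs578T, so the count of members called is read against that share. The M and U arrays of the lines did not overlap for 7 of 8 members, against 73.4% of all genes, and the 6 arrays per line did not overlap for 6 of 8, against 65%. A gene was tested if 2 or more arrays reached 5. ITGA11 was dim in all BT-20 arrays and ITGB4 in all Hs578T arrays, so each was tested only through its high line. That filter fixed the direction of these 2 differences, so their p-values and their place in these counts are description only. The ninth member, ITGB3, was under 5 in all 12 arrays and was not tested. In bulk RNA a difference in the share of cells that express a gene and a difference in RNA per cell cannot be told apart.

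**Figure D1:**
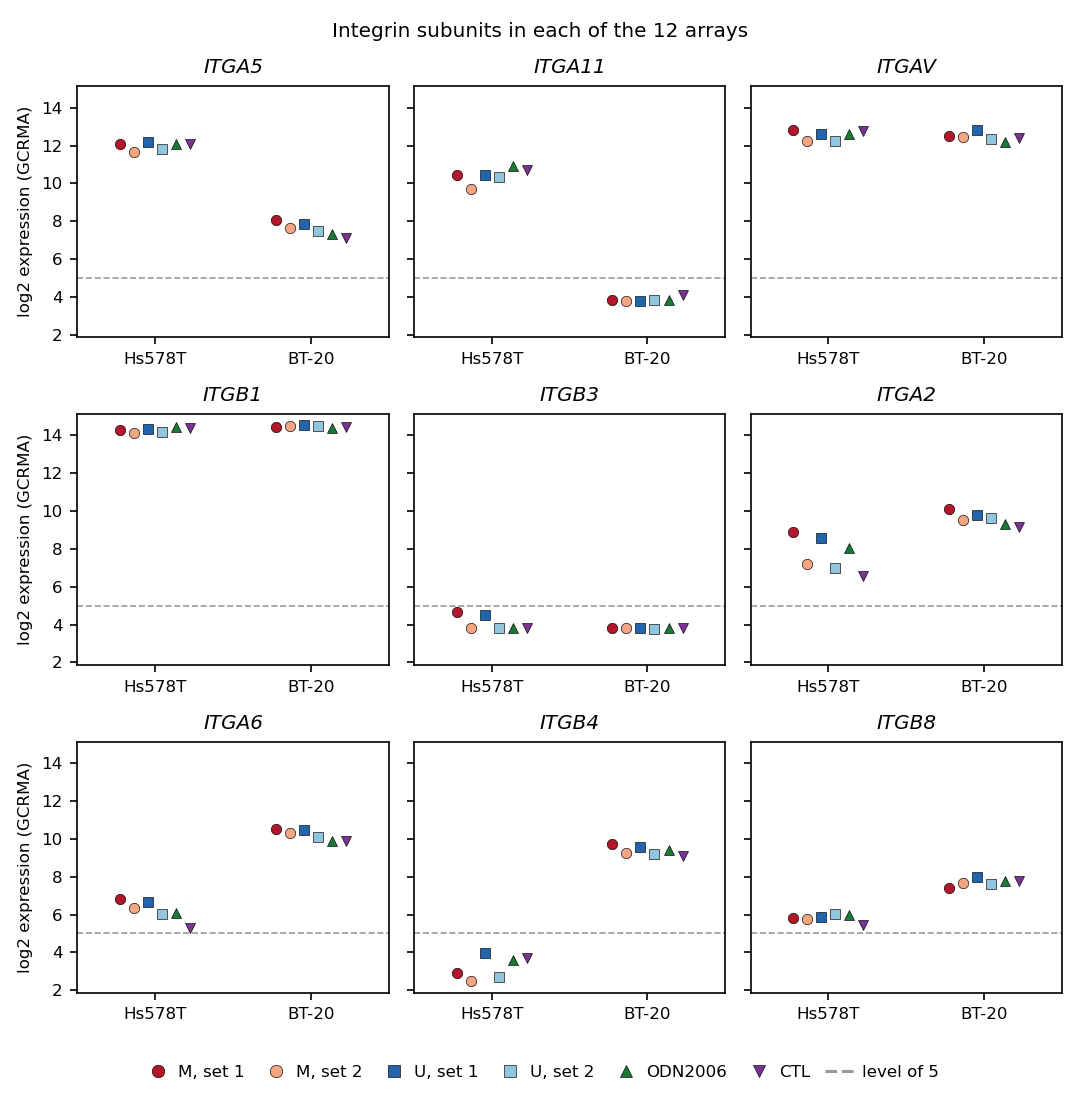
Log2 expression of the 9 measured integrin subunits (vertical axis) in the 6 Hs578T and the 6 BT-20 arrays; each point is 1 array, coloured by oligonucleotide and set, and the dashed line marks a level of 5. ITGA5 and ITGA11 lie higher in Hs578T, ITGA2, ITGA6, ITGB4 and ITGB8 lie lower, and ITGB3 stays under 5 throughout.

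The collagen receptor subunits differed in opposite directions. ITGA11, whose product binds interstitial collagens, stood in Hs578T at 10.46 and 9.69 (M), 10.45 and 10.34 (U), 10.93 (ODN2006) and 10.71 (CTL). In BT-20 it stood at 3.85 and 3.80 (M), 3.80 and 3.83 (U), 3.83 (ODN2006) and 4.09 (CTL). All 6 BT-20 arrays were dim, and the lowest Hs578T array lay 5.60 above the highest of them. The fitted difference in the M and U arrays was 6.42 ± 0.17 (SE, n = 4 per line, adjusted p = 1.72e-07), and set against the level of 5 ITGA11 was at least 37.7-fold higher in Hs578T.

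ITGA2, the α subunit of another collagen receptor, which is common on epithelial cells, was lower in Hs578T. There it stood at 8.92 and 7.22 (M), 8.58 and 6.98 (U), 8.03 (ODN2006) and 6.60 (CTL). In BT-20 its levels were 10.14 and 9.53 (M), 9.77 and 9.63 (U), 9.32 (ODN2006) and 9.18 (CTL). The lines did not overlap, but the Hs578T arrays spread widely, with both set 1 arrays above both set 2 arrays, and the highest Hs578T array came within 0.26 of the lowest BT-20 array. The difference was -1.84 ± 0.48 (adjusted p = 0.0107), a level 3.58-fold lower in Hs578T, and it was -1.20 within set 1 and -2.48 within set 2. It no longer passed when all genes were tested without the filter on level (adjusted p = 0.051) or when values under 5 were raised to 5 (adjusted p = 0.0856).

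Both hemidesmosome subunits were lower in Hs578T. ITGB4 was dim there, at 2.89 and 2.47 (M), 3.95 and 2.68 (U), 3.62 (ODN2006) and 3.73 (CTL). BT-20 arrays had ITGB4 at 9.70 and 9.28 (M), 9.57 and 9.21 (U), 9.42 (ODN2006) and 9.11 (CTL). The gap between the lines was 5.17 over the 12 arrays. The fitted difference was -6.45 ± 0.29 (adjusted p = 2.36e-06), and against the level of 5 ITGB4 was at least 21.7-fold lower in Hs578T.

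ITGA6, which joins ITGB4 or ITGB1, was expressed in both lines. The Hs578T arrays had 6.80 and 6.35 (M), 6.65 and 6.02 (U), 6.10 (ODN2006) and 5.31 (CTL). The BT-20 arrays had 10.53 and 10.31 (M), 10.48 and 10.11 (U), 9.86 (ODN2006) and 9.87 (CTL). No array of one line came within 3.06 of the other. The difference was -3.90 ± 0.19 (adjusted p = 3.30e-06), a level 15.0-fold lower in Hs578T.

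The fibronectin receptor subunit ITGA5 was the other member that was higher in Hs578T. Its levels there were 12.06 and 11.68 (M), 12.20 and 11.84 (U), 12.06 (ODN2006) and 12.07 (CTL). In BT-20 they were 8.07 and 7.66 (M), 7.86 and 7.48 (U), 7.33 (ODN2006) and 7.11 (CTL). The gap was 3.61, and the difference of 4.17 ± 0.17 (adjusted p = 1.34e-06) was 18.1-fold. It came to 4.16 within set 1 and 4.19 within set 2.

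ITGB1, the common partner, was near the top of the scale in both lines. Hs578T arrays ran between 14.14 and 14.43 and BT-20 arrays between 14.42 and 14.55. The M and U arrays of the lines did not overlap, whereas over all 12 arrays they did, by 0.02. The difference of -0.26 ± 0.09 (adjusted p = 0.0366) was a level 1.20-fold lower in Hs578T. With M and U averaged within each set, so that each line had 2 values, it did not pass (adjusted p = 0.134), whereas the other 6 called members did (ITGA2 with adjusted p = 0.0421, the rest between 3.69e-05 and 0.000381). This setting was chosen after seeing the data. The call of ITGB1 was also lost with the loss of any of 6 of the 8 arrays, every BT-20 array and both set 2 Hs578T arrays among them (adjusted p between 0.062 and 0.105), in the set 1 arrays alone (difference -0.18, adjusted p = 0.196) and over all 12 arrays (difference -0.15, adjusted p = 0.134).

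Among the subunits of the ITGAV receptors, ITGAV itself overlapped between the lines, at 12.82 and 12.24 (M), 12.60 and 12.24 (U), 12.59 (ODN2006) and 12.78 (CTL) in Hs578T. In BT-20 it stood at 12.50 and 12.43 (M), 12.81 and 12.35 (U), 12.18 (ODN2006) and 12.40 (CTL). The difference was -0.05, with a 95% confidence interval from -0.48 to 0.38 (adjusted p = 0.825), and its sign turned between set 1 (0.06) and set 2 (-0.15). Of all genes tested, 3.32% had a smaller absolute difference.

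ITGB8, which with ITGAV binds latent TGF-β, was lower in Hs578T. The Hs578T levels were 5.83 and 5.75 (M), 5.87 and 6.01 (U), 5.97 (ODN2006) and 5.45 (CTL), all close above the dim range. Those of BT-20 were 7.39 and 7.66 (M), 8.0 and 7.61 (U), 7.77 (ODN2006) and 7.76 (CTL). The difference was -1.80 ± 0.13 (adjusted p = 1.88e-05), 3.49-fold, and the gap was 1.39. ITGB3, another partner of ITGAV, was dim in Hs578T, at 4.67 and 3.81 (M), 4.49 and 3.81 (U), 3.82 (ODN2006) and 3.81 (CTL). Its BT-20 arrays lay between 3.78 and 3.83, and no fold was computed from levels that are dim on both sides.

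**Figure D2:**
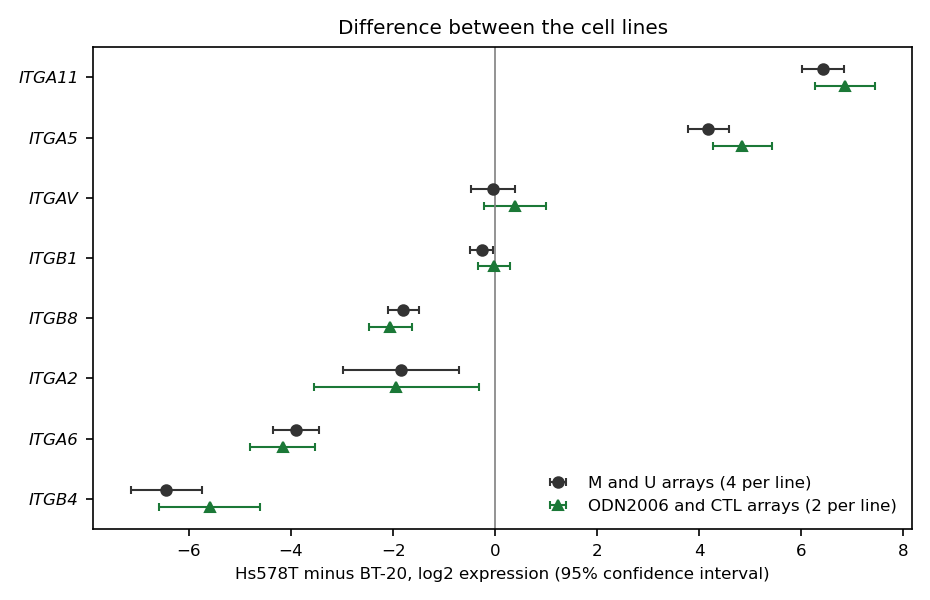
Difference in log2 expression, Hs578T minus BT-20 (horizontal axis), of the 8 tested integrin subunits; points are fitted differences and bars their 95% confidence intervals, for the M and U arrays (circles) and for the ODN2006 and CTL arrays (triangles). ITGA11 and ITGA5 lie right of 0, ITGAV and ITGB1 lie close to 0, and ITGB8, ITGA2, ITGA6 and ITGB4 lie left of 0.

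The 4 arrays with ODN2006 or CTL gave the same comparison again. Of 8 members 2 were higher and 4 lower in Hs578T, where 67.3% of 10543 genes were called, 29.7% higher and 37.6% lower. Each ODN group had a single array, whose spread was taken from the replicated groups. ITGA11, dim in BT-20, was at least 56.5-fold higher in Hs578T, and ITGB4, dim in Hs578T, was at least 19.2-fold lower. ITGA5 differed by 4.84 ± 0.24, ITGA6 by -4.16 ± 0.27 and ITGB8 by -2.05 ± 0.18. These 5 all passed the threshold. ITGA11 and ITGB4, however, were again tested only through their high line. The filter fixed their direction, so their p-values and their place in this count are description only. ITGA2 passed more narrowly, at -1.94 ± 0.67 (adjusted p = 0.0389), and failed under 7 of 15 other settings. ITGAV (0.39 ± 0.25, adjusted p = 0.212) and ITGB1 (-0.03 ± 0.13, adjusted p = 0.858) did not pass, and with the arrays centred on 20 housekeeping genes ITGB1 turned to 0.28. That centring moved the median of all genes in this comparison by 0.32. The line difference itself was then compared between the 2 kinds of array, ODN minus M and U. It changed for 0 of 8 members (limma, 0 of them at an unadjusted p under 0.05; 0.304% of all genes, 0.247% upward and 0.0569% downward), with estimates between -0.26 for ITGA6 and 0.85 for ITGB4. The ITGB4 estimate came from dim Hs578T levels and was 0.18 with values under 5 raised to 5, and ITGA5 was next at 0.67.

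The other probe sets of these genes were examined, since a probe set can miss a transcript. Probe sets of the whole array were tested for this, whether 1 gene, several or none was listed. Of 21150 at 5 or above in at least 2 of the M and U arrays, 71.9% were called between the lines. Both probe sets of ITGA2 were lower in Hs578T, by -1.84 and -1.50. The second probe set of ITGA6 gave -5.77 against -3.90 for the one used, and that of ITGA11 gave 4.78 against 6.42. For ITGB4 the other 2 probe sets with signal gave -6.05 and -4.49. For ITGB1 the 3 probe sets with signal gave -0.26, -0.41 and -0.43, the last pair with adjusted p = 0.00869 and 0.00503. ITGA5 and ITGAV had 1 probe set, and ITGB8 had 1 of 5 with signal. The probe sets of ITGA11 and ITGB4 and the second one of ITGA6 averaged under 5 in the lower line, so those sizes are not comparable between probe sets. The direction was shared by the tested probe sets of each gene. For ITGA11 and ITGB4 the filter on level fixed it, and the second probe set of ITGA6 averaged under 5 in Hs578T, so there it is description only. The tested probe sets of ITGA2 and ITGB1 averaged above 5 in both lines.

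**Figure D3:**
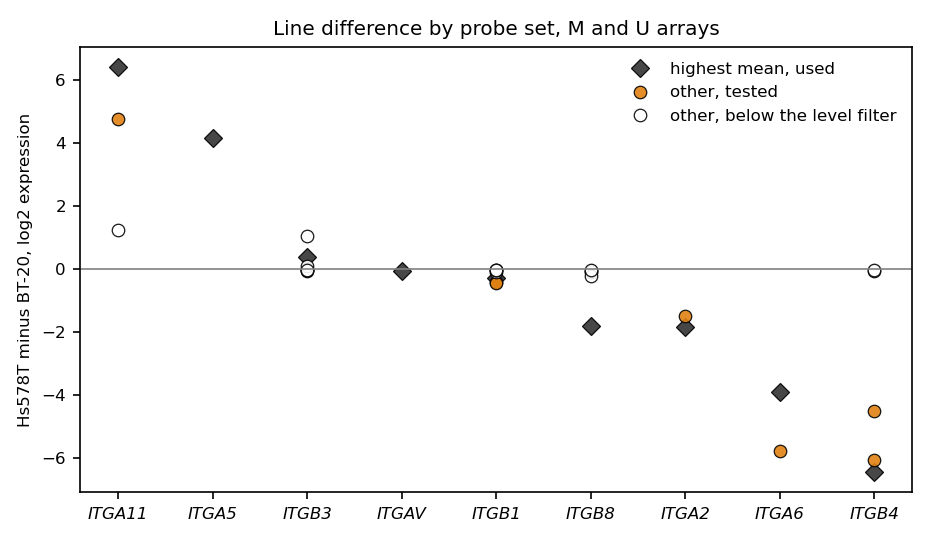
Hs578T minus BT-20 in log2 expression (vertical axis) for each single-gene probe set of the 9 integrin subunits in the M and U arrays; diamonds are the probe sets used, filled circles others that were tested and open circles others that failed the filter on level. Tested probe sets of ITGA2, ITGA6, ITGA11, ITGB1 and ITGB4 lie on the same side of 0 as the one used. For ITGA11 and ITGB4 the filter on level fixed that side.

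The promoters of both members that were higher in Hs578T and of ITGA6 and ITGA2, which were lower, are shown because they are the sequences next to the genes that differed. RefSeq (GRCh38.p14) gave 11 windows for 8 members, and those below are the 250 bases before the annotated start, 5′ to 3′, outside the transcribed region. Capitals mark CACCTG on either strand (CAGGTG on the strand printed), the E-box bound by the ZEB and SNAIL families, repressors of epithelial genes. This motif was found in 17.5% of 35116 windows of this length. ITGA11 held 1 copy, ITGA6 held 2, and ITGA5 and ITGA2 held 0. A second annotated start of ITGA6 has a window, not shown, with 0 copies.
ITGA11 promoter, chr15:68432164-68432413, minus strand: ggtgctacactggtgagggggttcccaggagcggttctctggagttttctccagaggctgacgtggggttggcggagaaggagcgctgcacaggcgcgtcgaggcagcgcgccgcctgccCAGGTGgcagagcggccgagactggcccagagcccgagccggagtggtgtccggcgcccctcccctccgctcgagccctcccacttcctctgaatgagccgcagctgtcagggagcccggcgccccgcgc
ITGA5 promoter, chr12:54419267-54419516, minus strand: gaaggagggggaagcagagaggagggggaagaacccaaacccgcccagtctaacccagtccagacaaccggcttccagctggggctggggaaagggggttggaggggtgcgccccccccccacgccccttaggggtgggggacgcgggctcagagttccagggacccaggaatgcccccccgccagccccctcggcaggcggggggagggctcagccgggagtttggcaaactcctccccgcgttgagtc
ITGA6 promoter, chr2:172427086-172427335, plus strand: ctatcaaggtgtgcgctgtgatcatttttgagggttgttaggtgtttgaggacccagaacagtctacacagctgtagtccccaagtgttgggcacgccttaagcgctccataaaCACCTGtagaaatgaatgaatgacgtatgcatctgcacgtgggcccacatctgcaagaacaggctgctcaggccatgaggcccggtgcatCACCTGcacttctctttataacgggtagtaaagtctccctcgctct
ITGA2 promoter, chr5:52989102-52989351, plus strand: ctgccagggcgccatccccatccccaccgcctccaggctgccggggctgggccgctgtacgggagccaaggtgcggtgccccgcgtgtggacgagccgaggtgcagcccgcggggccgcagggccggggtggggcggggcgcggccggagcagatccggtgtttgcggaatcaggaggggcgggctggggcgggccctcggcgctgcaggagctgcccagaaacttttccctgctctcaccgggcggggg

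Copies thus lay in a window of a member that was higher in Hs578T and in a window of one that was lower, and a match is a description of letters only. TGANTCA, the AP-1 motif, which reads alike on both strands, was in 0 of the 11 windows and in 6.57% of all windows. GGGCGG on either strand, the GC box, was in 42.6% of all windows, with 4 copies in ITGA2, 1 in ITGA5 and 0 in the windows of ITGA11 and ITGA6 shown. No copy of one motif overlapped a copy of another. CpG dinucleotides numbered 26 in the ITGA2 window, 23 in ITGA11, 12 in ITGA5 and 8 in ITGA6, against a median of 11 over all windows. The second window of ITGA6 held 3 GGGCGG and 30 CpG, so the counts of this gene depend on the start taken. Methylation of these promoters was not measured.

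Other integrin subunits on the array also differed in both directions. Of 16 other subunits 6 were tested, and 3 were higher and 3 lower in Hs578T, against 34.4% and 40.2% of all genes. The 3 higher ones, ITGA8, ITGA4 and ITGA1, were dim in all BT-20 arrays and were tested only through Hs578T. The filter on level thus fixed their direction, and their p-values are description only. ITGA8, a partner of ITGB1 in mesenchymal cells, averaged 8.77 ± 0.38 in Hs578T and 2.30 ± 0.02 in BT-20 (SD, n = 4 each), at least 13.6-fold higher in Hs578T (fitted difference 6.47, adjusted p = 3.18e-07). ITGA4, which binds fibronectin and VCAM1, averaged 7.26 ± 0.19 in Hs578T and 3.08 ± 0.03 in BT-20, at least 4.80-fold higher in Hs578T (adjusted p = 2.48e-07). ITGA1, another collagen receptor subunit, ran between 4.66 and 6.83 in the Hs578T M and U arrays, against 3.19 to 3.22 in BT-20 (adjusted p = 0.00217). Lower in Hs578T were ITGA3, a laminin receptor subunit, by -1.60 ± 0.39 (adjusted p = 0.00804), ITGAE by -1.24 ± 0.13 (adjusted p = 0.000119) and ITGB5, a partner of ITGAV, by -0.56 ± 0.09 (adjusted p = 0.0014). In the ODN arrays ITGA3 and ITGB5 did not pass (adjusted p = 0.105 and 0.144).

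The other 10 subunits did not reach 5 in 2 arrays. ITGA2B, ITGA7, ITGA9, ITGAD, ITGAL, ITGAM, ITGAX, ITGB2 and ITGB7 were dim throughout, among them the subunits of leukocyte and platelet integrins. ITGA10, also a collagen receptor subunit, reached 5.15 with ODN2006 and 4.77 with CTL in Hs578T, against 2.24 and 2.36 in BT-20. In the Hs578T M and U arrays ITGA10 lay between 2.24 and 3.99.

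**Figure D4:**
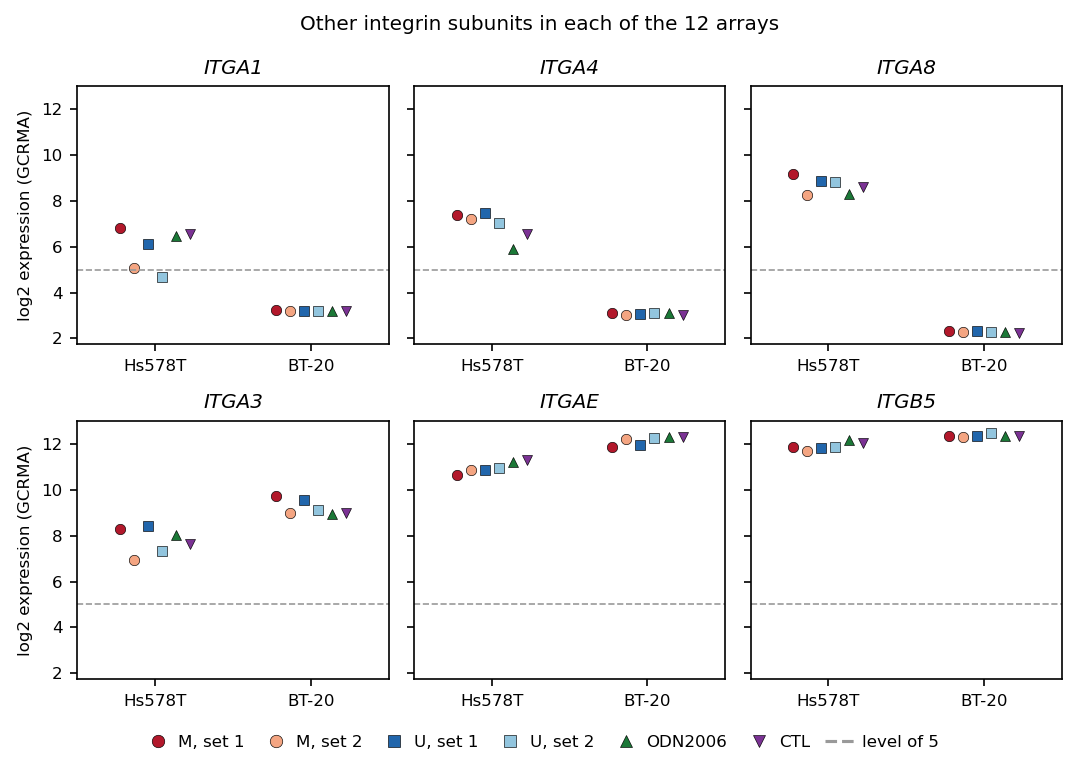
Log2 expression (vertical axis) of the 6 other integrin subunits that passed the filter on level, in the 6 Hs578T and the 6 BT-20 arrays; each point is 1 array, and the dashed line marks a level of 5. ITGA1, ITGA4 and ITGA8 lie higher in Hs578T, and ITGA3, ITGAE and ITGB5 lie lower in the M and U arrays.

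Genes for the ligands and partners of these receptors were read beside them, and the median over all genes tested was -0.09. Of all genes tested 34.4% were called higher and 40.2% lower in Hs578T, and the counts of each list are to be read against these shares. These medians take dim levels as measured. A gene dim in a whole line was tested only through the other line. The filter on level fixed the direction of such a gene, and its place in the counts is description only. That holds for COL3A1, POSTN, EDIL3 and LRRC32, dim in BT-20, and for SPP1, dim in Hs578T. Most of the collagen genes averaged under 5 in BT-20. All 10 collagen genes were higher in Hs578T (list median 8.48), among them COL3A1 at 14.89 ± 0.04 against 2.66 ± 0.03 in BT-20. Of 8 RGD ligands tested 5 were higher and 2 lower (median 2.01). POSTN and EDIL3 were at 14.85 and 12.94 in Hs578T against 2.87 and 2.23 in BT-20, whereas SPP1, which encodes osteopontin, was at 2.58 in Hs578T against 7.50 in BT-20. Of 6 genes for the latent TGF-β complex 4 were higher and 1 lower (median 2.92), with LRRC32, a docking protein for latent TGF-β, at 8.37 in Hs578T and 2.18 in BT-20. Laminin chains were divided, with 4 of 6 higher and 2 lower (median 1.57). LAMB3, a chain of the laminin under hemidesmosomes, was at 6.58 in Hs578T and 10.47 in BT-20, and LAMB2 was at 8.19 in Hs578T and 5.93 in BT-20.

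The next 3 lists are also set against 74.6% of all genes called, 34.4% higher and 40.2% lower. Their counts are not read as results about the lists. KRT5, dim in Hs578T, and KRT14, KANK1 and TNS1, dim in BT-20, were tested only through the other line, which fixed their direction. Of 5 hemidesmosome partners 3 were higher and 1 lower in Hs578T (median 0.52), although both hemidesmosome integrin subunits were lower. KRT5, a basal keratin, was at 2.14 in Hs578T and 12.75 in BT-20. KRT14, which usually pairs with KRT5, was at 12.89 in Hs578T and 4.05 in BT-20. DST (1.34 ± 0.18), a plakin that anchors keratin to the hemidesmosome, and CD151 (0.52 ± 0.09), a tetraspanin, were higher in Hs578T. Among 25 genes for talins, kindlins and the focal adhesion core, which link β subunits to actin, 11 were higher and 8 lower (median 0.29), KANK1 (at 8.67 in Hs578T and 2.4 in BT-20), TNS1 (at 8.75 in Hs578T and 2.74 in BT-20) and PARVB (1.58 ± 0.10) among the higher and BCAR1 (-2.34 ± 0.14) among the lower. Of 12 integrin-associated membrane proteins 9 were higher and 3 lower (median 0.60): CAV1 was higher by 2.14 ± 0.21, and SDC1 (-2.44 ± 0.21), SDC4 (-1.59 ± 0.10) and CD9 (-1.14 ± 0.10) were lower.

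Cell type markers moved with the line difference, and their part in the integrin values was not tested. Over all genes tested, 34.4% were called higher and 40.2% lower in Hs578T. In Hs578T 17 of 17 epithelial markers were lower, with 12 of them under 5 in all 6 arrays and array sums of log2 values from 71.6 to 75.9, against 195 to 197 in BT-20. E-cadherin, CDH1, was at 2.69 in Hs578T and 13.21 in BT-20. All 22 mesenchymal markers were higher, with 14 of them under 5 in all 6 BT-20 arrays and sums from 270 to 279 in Hs578T and from 102 to 111 in BT-20. Markers under 5 in a whole line were tested only through the other line. The filter on level fixed their direction, so the marker counts are description only. The 9 leukocyte markers were under 5 in every array. Of 7 endothelial markers PECAM1 reached a mean of 5.46 in Hs578T, against 2.66 in BT-20, and CDH5 stood at 2.66 in Hs578T and 8.59 in BT-20 and EGFL7 at 2.94 in Hs578T and 7.10 in BT-20.

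Sets 1 and 2 also differed, and several integrin subunits moved with them. In Hs578T ITGA2 differed by -1.65 between set 2 and set 1, a wider difference than 99.3% of genes. ITGB4 (dim in both sets) differed by -0.84 and ITGA6 by -0.54 between set 2 and set 1, where the median absolute difference over all genes was 0.17. The difference was negative for 7 of 8 members in Hs578T and for 7 of 8 in BT-20, against 57.8% of all genes in each line. In BT-20 no member differed by more than 0.40 between the sets. This comparison was chosen after the values were seen and carries no test.

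Methylation of the oligonucleotide was compared next. M against U gave 0 genes past the threshold in Hs578T and 0 in BT-20, with limma in its plain and in its trended, robust form, and so 0 of 8 members (0% of 10410 genes). At an unadjusted p under 0.05 there were 680 genes in Hs578T and 174 in BT-20, and 0 members in either. ITGB4 in Hs578T and ITGA11 in BT-20 were dim in all 4 arrays and entered these tests only through the other line, so their differences there lie among dim levels. The other 7 members differed by -0.32 to 0.29 in Hs578T and by -0.27 to 0.19 in BT-20, with standard errors from 0.13 for ITGB1 to 0.67 for ITGA2. Those errors include the spread between sets 1 and 2, although M and U came in pairs from each set. With set within line as a block in the fit, the error was 0.15 for ITGA2 and 0.11 for ITGB1. That fit also called 0 members in Hs578T and 0 in BT-20. Tests over both lines and of the difference between the lines also called 0 members. In simulated data the test recovered 58% of genes changed by 1 and 93% of those changed by 2 on the log2 scale in Hs578T, and 38% and 98% in BT-20. It also called 8 unchanged genes in Hs578T and 15 in BT-20. Both lines share 1 estimate of spread, so the gap between 58% and 38% is not read as a difference between the lines. These rates are not those of single members with wide errors, such as ITGA2.

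The values of single array pairs were also read. For ITGA5, M minus U was -0.14 and -0.15 in sets 1 and 2 of Hs578T and 0.21 and 0.18 in BT-20, the same sign within each line and the opposite sign between them. ITGB1 differed by -0.06 and -0.02 in Hs578T and by -0.10 and 0.02 in BT-20. ITGA6 was the 1 member tested with M above U in all 4 pairs, by 0.14 and 0.32 in Hs578T and by 0.05 and 0.20 in BT-20 (adjusted p = 0.958 and 1.00). ITGA11 differed by 0.01 and -0.65 in Hs578T, where its M array of set 2, at 9.69, was the lowest of the 6. ITGB8 differed by -0.04 and -0.26 in Hs578T and by -0.61 and 0.06 in BT-20.

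**Figure D5:**
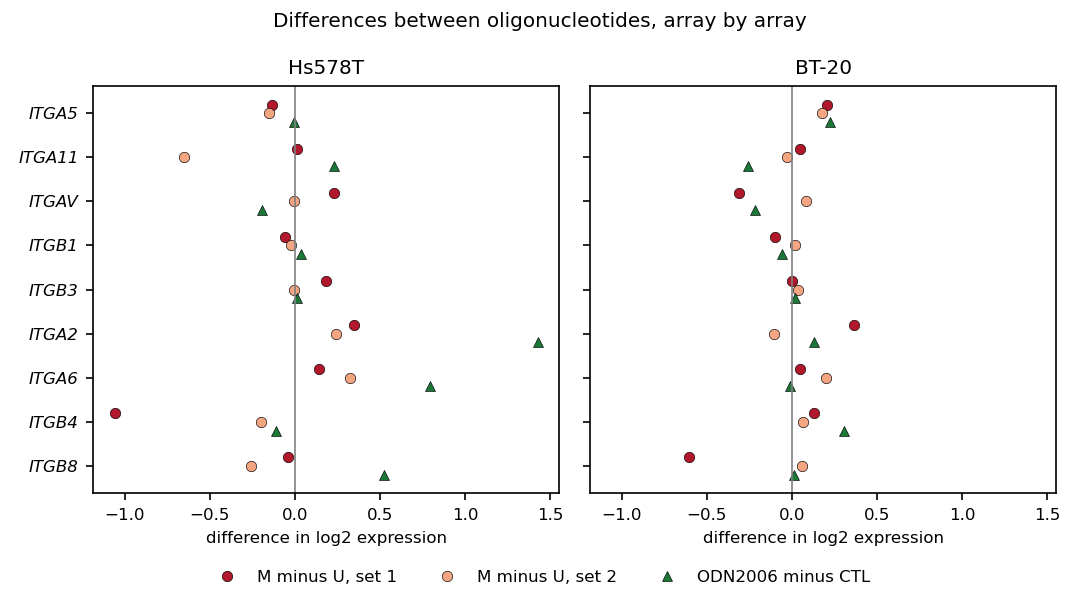
Differences in log2 expression (horizontal axis) of the 9 integrin subunits, in Hs578T (left) and BT-20 (right); circles are M minus U within set 1 or set 2, triangles are ODN2006 minus CTL, each from 1 pair of arrays, so there are no error bars. Most points lie within 0.5 of 0, and ITGA2 in Hs578T has the widest ODN2006 difference, 1.43.

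ODN2006 against CTL had 1 array of each per line, and the spread came from the M and U arrays. Over both lines 1 of 10543 genes was called (0.00948%, higher) and 0 members (limma, 0 at an unadjusted p under 0.05, and 0 members also with the trended, robust form). Within one line the count was 0% in Hs578T and 0.019% in BT-20, again with 0 members. In Hs578T ITGA2 was at 8.03 with ODN2006 and 6.60 with CTL, a difference of 1.43 with a 95% confidence interval from -0.85 to 3.71 (adjusted p = 1.00). ITGA6 was at 6.10 with ODN2006 and 5.31 with CTL (0.79, unadjusted p = 0.077, adjusted p = 0.964, limma). ITGB8 stood at 5.97 with ODN2006 and 5.45 with CTL (0.52, adjusted p = 0.965). In BT-20 the differences of all 9 members lay between -0.26 for ITGA11, which was dim, and 0.30 for ITGB4.

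Lastly the 2 ODN arrays were set against the M and U arrays of set 2, whose array names in the labels end in the same code as theirs. No set number is given for the ODN arrays. This comparison joins oligonucleotides that differ in sequence, strandedness and chemistry. ODN2006 and CTL were pooled as the 2 ODN arrays of a line, and M and U as its 2 set 2 arrays. In Hs578T 9.03% of 10375 genes were called, 3.87% higher and 5.16% lower in the ODN arrays, and in BT-20 0%. The 937 genes called in Hs578T ran from 50 to 1510 with 1 array left out. Of 8 members 1 was called in Hs578T, ITGB4 (1.10 ± 0.14, adjusted p = 0.0132), at 3.62 and 3.73 in the ODN arrays against 2.47 with M and 2.68 with U. All 4 of these levels are dim, and with values under 5 raised to 5 the difference is 0. ITGA11 (0.80 ± 0.22, adjusted p = 0.0687), ITGAV (0.44 ± 0.12, adjusted p = 0.0729) and ITGB1 (0.26 ± 0.10, adjusted p = 0.127) were under an unadjusted p of 0.05 and did not pass.

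With the arrays centred on housekeeping genes, which moved the median of all genes by 0.30 here, 4 members were called in Hs578T: ITGA11 (1.10), ITGAV (0.74), ITGB1 (0.56) and ITGB4. ITGA5 (0.31 ± 0.13, adjusted p = 0.171), ITGA6 (-0.48 ± 0.26, adjusted p = 0.261), ITGA2 (0.21 ± 0.41, adjusted p = 0.774) and ITGB8 (-0.16 ± 0.19, adjusted p = 0.595) did not pass without the centring. In BT-20 0 members passed (limma), and ITGA5 (-0.35 ± 0.13) was at an unadjusted p under 0.05. The difference between the lines in this comparison was called for 0 of 8 members (limma, 0.27% of all genes, 0.202% upward and 0.0675% downward; 3 members at an unadjusted p under 0.05).

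Of 6 other integrin subunits tested 2 passed in Hs578T, where 9.03% of all genes were called. ITGA1 stood at 6.46 with ODN2006 and 6.55 with CTL, against 5.08 with M and 4.66, a dim level, with U in set 2 (1.64 ± 0.15, adjusted p = 0.00525). The difference between the lines was 1.64 ± 0.21 (limma, adjusted p = 0.0473). In BT-20, however, ITGA1 was dim in every array, between 3.18 and 3.22. A change there could not be read, so this value repeats the Hs578T difference and does not show a response particular to Hs578T. The set 1 arrays had ITGA1 at 6.83 with M and 6.13 with U, so that the ODN arrays lay within the range of set 1. ITGA4 stood at 5.88 with ODN2006 and 6.55 with CTL, against 7.22 with M and 7.01 with U (-0.90 ± 0.21, adjusted p = 0.0497). Of the ligand and partner genes LPP (0.91), DST (1.04), KRT14 (0.64), LAMB2 (0.94), COL5A1 (0.50), LTBP3 (0.56) and ACTN1 (0.47) were higher and CD9 (-0.48) was lower in the ODN arrays of Hs578T. Among the cell type markers DSP (0.94), PDGFRB (0.76) and LUM (0.46) were higher, and their part in the integrin values was not tested. DSP stood at 9.21 with ODN2006 and 8.70 with CTL, under its set 1 levels of 10.01 with M and 9.88 with U. PDGFRB and LUM were higher in both ODN arrays than in set 1. ST14 passed the test at levels that were all dim, 3.02 and 3.02 in the ODN arrays against 3.56 with M and 4.05 with U.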

How the data were processed

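The deposited values were log2 expression for 54675 probe sets on 12 arrays, computed by the authors with GCRMA in R 2.4 per the submitters' processing notes; whether the arrays were normalised together is not given in the sources used here. Array medians lay between 3.01 and 3.08; the number of arrays limits the precision. Probe sets were named from the platform annotation, with symbols updated through RefSeq gene IDs (41097 with 1 gene, 1801 with several, 11777 with none listed). Each of 19775 genes was represented by its brightest single-gene probe set, and a gene entered a fit if 2 or more of its arrays reached 5.

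Comparisons used limma 3.58.1 in R 4.3.3 (means of line by oligonucleotide, contrasts, eBayes) with Benjamini-Hochberg adjustment over all genes tested and a threshold of 0.05: 8 M and U arrays, all 12 arrays, or the ODN arrays with set 2. In the last, ODN2006 and CTL were pooled as 2 replicates of a line, and so were M and U, so that the spread holds any difference between them. Each fit had 4 residual degrees of freedom. Calls were tested on simulated data. Where a gene was dim in a whole line, folds were taken against the level of 5. Sequences were read from the labels and from the RefSeq promoter table, with Python 3.11.15.

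The members and lists were chosen with earlier results of these data known. All members, every other integrin subunit, up to 4 genes of each other list with the smallest p between the lines and any list gene called between oligonucleotides could be named; housekeeping genes were not. Deviations from group means correlated at 0.599 (Hs578T) and 0.595 (BT-20) between M and U of a set, and at 0.0984 to 0.131 between lines, so set within line served as a block in an alternative fit. Other alternatives left out the filter, raised dim values, rescaled the arrays, averaged probe sets, changed eBayes or left out arrays.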

Additional observations from a re-analysis of the deposited data

Results flagged for a closer look

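In Hs578T, ITGA11 at 9.69 in the M array of set 2 stood apart from the other 3 M and U arrays, of which the nearest was at 10.34; the gap was 0.84 of the whole range. In all 18 groups of 4 arrays were examined in this way, and chance alone marks about 1 in 20.

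For ITGA5, M minus U was negative in both sets of Hs578T and positive in both sets of BT-20, and the effects differed by -0.34. For ITGB4 the pattern of signs was the same, and the effects differed by -0.73; its Hs578T levels were all under 5. In limma's test of the difference between the lines neither passed (adjusted p = 0.999 for both).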

How the results depend on the processing

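Of 50 differences of integrin subunits, 376 values were recomputed under settings other than the loss of 1 array. Some of these settings used another set of arrays, such as set 1 alone or all 12. Of the 376, 343 kept their direction and their side of the threshold, 10 lost the call, 9 gained one and 14 changed sign. With 1 array left out, 400 values gave 363, 11, 2 and 24. Many of these could not change in size. For the ODN line difference and ODN2006 against CTL only M or U arrays were left out, which alters the error alone. For M against U in a line, the same holds when an array of the other line is left out. Causes were not tested. ITGA5, ITGA6, ITGA11, ITGB4 and ITGB8 kept the line call under every setting in which they were tested, in M and U and in ODN arrays. ITGB8 was tested under 18 and 14 settings, the others under 19 and 15. Where the filter on level was applied, it fixed the direction of ITGA11 and ITGB4. No ODN array was left out for the ODN line difference, so leaving out arrays could not move those differences. ITGAV turned to 0.058 in set 1 alone, to 0.17 over all 12 arrays and ran from -0.19 to 0.10 with 1 array left out, and ITGB1 in ODN arrays turned to 0.28 with housekeeping centring. All values near the dim range rest on weak signal.

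With the replicate block, set within line, 8431 genes and 7 members were called between the lines in M and U arrays, 7926 and 6 in ODN arrays, 0 for M against U and 1 for ODN2006 against CTL, and the line difference itself changed for 633 genes, against 32 without it. The block takes the spread between sets out of the error of the line difference, so it does not test the line calls. With M and U averaged within each set, chosen after seeing the data, 6845 genes and 6 members were called, ITGB1 no longer among them. The comparison of ODN arrays with set 2 holds no second set, so it had no block. Those 32 genes were 310 without the filter, 295 with dim values raised to 5, 58 with housekeeping centring, 8 with the trended, robust form and 13 to 31 with 1 array left out.

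For M against U, raising dim values gave 7 genes for Hs578T, 2 for BT-20, 9 with the lines joined and 9 for the difference between lines. With Hs578T, averaging probe sets turned ITGA6 to -0.0061 and ITGA11 to 0.15, and housekeeping centring turned ITGAV to -0.021. In BT-20, ITGA11 turned to -0.033 with quantile normalization and to -0.065 with averaged probe sets, and ITGB4 to -0.042 with averaged probe sets. With 1 array left out, Hs578T differences ran from -0.56 to 1.14 for ITGA2, -0.33 to 0.043 for ITGA5, -0.082 to 0.55 for ITGA6, -0.71 to 0.068 for ITGA11, -0.18 to 0.40 for ITGAV, -0.13 to 0.050 for ITGB1 and -1.27 to 0.0033 for ITGB4. In BT-20 they ran from -0.18 to 0.44 for ITGA2, -0.015 to 0.40 for ITGA5, -0.062 to 0.31 for ITGA6, -0.016 to 0.036 for ITGA11, -0.34 to 0.12 for ITGAV and -0.12 to 0.31 for ITGB4.

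ODN2006 against CTL gave 150 genes without the filter, 219 with dim values raised, 0 with the trended, robust form, 0 from the 4 ODN arrays alone and 0 to 1 with 1 array left out. Over both lines ITGA11 turned to 0.11 with dim values raised and 0.32 with averaged probe sets, where ITGB1 turned to 0.043 and ITGB4 to -0.028.

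ODN arrays against set 2 in Hs578T gave 277 genes with dim values raised, 1444 with the trended, robust form and 50 to 1510 with 1 array left out. Members called were 2 without the filter, 4 with housekeeping centring, 2 with quantile normalization, 3 with the trended, robust form and 0 to 2 with 1 array left out. ITGB8 turned to 0.13 with housekeeping centring and ran from -0.43 to 0.10, and ITGA2 from -0.51 to 0.93 (adjusted p = 0.0314 by limma without the CTL array). BT-20 gave 4 genes without the filter, 8 with dim values raised and 0 to 4 with 1 array left out. The difference between lines gave 67, 68 and 1 to 123.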
